A study of Mus musculus with 6 samples.

Results

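The genes of cholesterol synthesis, uptake and SREBP2 control were examined in the livers of mice of the inbred strain C57BL6/J. The set has 30 members, listed by name and by pathway step: 8 enzymes from acetoacetyl-CoA to isoprenoid diphosphates, 12 enzymes from squalene to cholesterol, 4 genes of SREBP2 control and 6 genes of cholesterol transport, uptake and storage. All 30 were found among the 34832 gene names on the array, and all 30 were among the 17078 genes compared. In 1 group 3 mice had received CBZ by mouth at 250 mg/kg, and in the other group 3 mice had received dimethyl sulfoxide (DMSO), a solvent, by the same route. Livers were taken 2 h later. The labels name the compound only as CBZ and describe no allele, transgene or second treatment in either group. Each array measured the whole liver of 1 mouse, so the replicates are separate animals, and 3 animals per group limit the precision of every value.

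Cells make cholesterol from acetyl-CoA through mevalonate, isoprenoid diphosphates and squalene. The transcription factor SREBP2, encoded by Srebf2, drives transcription of most enzymes of this route. SREBP2 is held in the endoplasmic reticulum with its escort SCAP by the INSIG proteins when sterols are plentiful. When sterols run low, SCAP carries SREBP2 to the Golgi, where proteases free the part that enters the nucleus. The liver makes cholesterol, takes it up from lipoproteins, stores it as esters and turns it into bile acids.

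Of the 30 members, 22 had a higher mean signal in the CBZ mice and 8 a lower one. Over all genes tested, 49.1% had a higher mean in CBZ (with scaling to the array median, 19 members and 29.4% of all genes). The median log2 fold change of the members (CBZ minus DMSO) was 0.25, beside -0.0042 over all genes tested. The enzymes of synthesis had a median of 0.31, with 16 of 20 higher in CBZ. The single largest difference was that of Insig2, which encodes one of the SREBP retention proteins and was 2.03-fold higher in CBZ. The 6 transport, uptake and storage genes were split, with 3 higher and 3 lower, though Npc1 and Npc2 turned from higher to lower with that scaling. No member passed an adjusted p of 0.05 in limma's moderated test with Benjamini-Hochberg adjustment, where 0.0527% of the genes tested passed. At an unadjusted p under 0.05, 7 members were higher in CBZ (5.01% of all genes) and 0 were lower (3.96% of all genes). Those 7 were Insig2, Hsd17b7, Pmvk, Hmgcs1, Mvd, Sqle and Fdft1. In 3 members every CBZ mouse lay above every DMSO mouse (6.28% of all genes), and in 2 members every CBZ mouse lay below (6.65% of all genes). These counts of separate groups are near the shares over all genes, and no result about the members. Leaving out CBZ replicate 1 lowered the members' median to 0.13 and the count at an unadjusted p under 0.05 to 1 member, and without DMSO replicate 3 they were 0.16 and 3. That count was 2 without DMSO replicate 2, 3 without CBZ replicate 2 and 13 without CBZ replicate 3. Over all genes at that p, 877 were higher and 592 lower of 17549 without CBZ replicate 1, and 1038 and 998 of 17437 without DMSO replicate 3. They were 538 and 381 of 17264 without DMSO replicate 2, and 985 and 737 of 17535 without CBZ replicate 2. Without CBZ replicate 3 they were 603 and 467 of 17195. The counts of 1, 2 and 3 members are near or below these shares, and no result about the members.

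**Figure D1:**
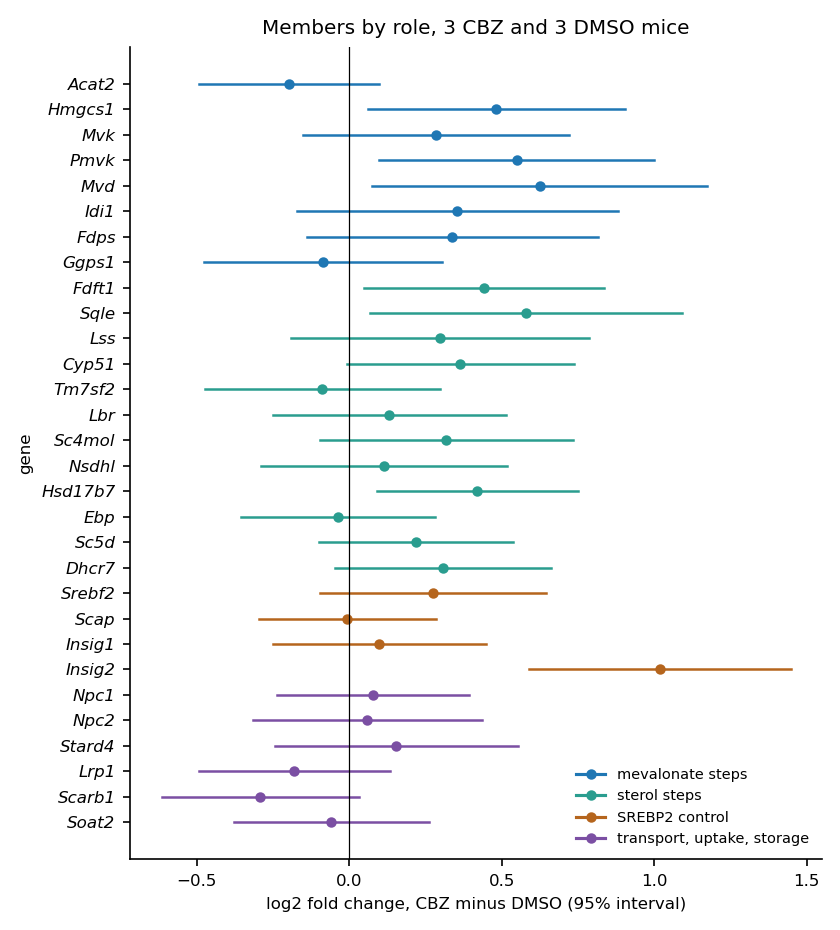
Log2 fold change of each member (horizontal axis, CBZ minus DMSO, 3 mice per group) by gene and role, where points are limma estimates and bars are their 95% intervals. Insig2 at 1.02 lies farthest from 0, and most enzymes of both synthesis stages lie to the right of 0.

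Signal was read as the processed intensity of a probe divided by the 75th percentile of its array, called scaled signal here, so that a value of 1 is that percentile. The percentile lay between 158 and 191 intensity units, and between 42.6% and 45.8% of an array's spots exceeded background clearly. All 30 members were well above background on all 6 arrays by their brightest probe, so the filter on dim probes removed no member. Levels of different genes are not compared, because probes differ in brightness. All arrays lay on 1 slide, with the 3 DMSO arrays and CBZ replicate 1 in row 1 and CBZ replicates 2 and 3 in row 2. CBZ replicate 1 is therefore the CBZ mouse that shares a row with the DMSO mice, and values are given for each mouse.

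Promoter sequence was available for 23 of the 30 members, in RefSeq windows on the build GRCm38.p6 that reach 250 bases upstream of a transcript start. Nuclear SREBP2 binds sterol regulatory elements and acts together with NF-Y, which binds CCAAT, and with Sp1, which binds GGGCGG. The NF-Y motif CCAAT stood within those 250 bases, on either strand, in 20 of 23 members (87%), beside 37.5% of the 27025 genes with a window and 40.1% of the 8562 coding genes that were also tested on the array. GGGCGG stood there in 21 members (91.3%), beside 35.4% and 60%. The sterol element core CACCCCAC stood there in 2 members (8.7%), Hmgcs1 and Acat2, beside 2.98% and 3.45%. A gene was counted when any of its windows held the letters, and the 3 motifs were counted separately whether or not they overlapped. Such a match is a string of letters and not a measured binding site. The 120-base stretches that follow are shown because they belong to the members with the core (Hmgcs1, Acat2), the member with the most CCAAT copies in a window (Mvk) and 2 members whose signal separated the groups (Hsd17b7, Insig2). They run 5′ to 3′ on the strand of the gene, with these motifs in capitals on either strand. A capital ATTGG is thus the NF-Y motif read on the opposite strand, as CCGCCC is for Sp1. For Insig2 the stretch lies before the most upstream of its 3 RefSeq starts, whose window is the one that holds CCAAT. They lie at chr13:119690155-119690274 (Hmgcs1, plus strand), chr17:12960847-12960966 (Acat2, minus), chr5:114444149-114444268 (Mvk, plus), chr1:169969206-169969325 (Hsd17b7, minus) and chr1:121332590-121332709 (Insig2, minus).
Hmgcs1: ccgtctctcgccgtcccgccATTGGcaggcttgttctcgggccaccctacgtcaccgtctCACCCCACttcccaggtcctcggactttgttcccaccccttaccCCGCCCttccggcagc
Acat2: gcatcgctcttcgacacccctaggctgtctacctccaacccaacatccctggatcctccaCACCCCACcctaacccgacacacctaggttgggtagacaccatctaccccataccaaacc
Mvk: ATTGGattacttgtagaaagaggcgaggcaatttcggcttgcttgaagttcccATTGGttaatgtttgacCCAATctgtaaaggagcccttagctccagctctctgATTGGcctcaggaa
Hsd17b7: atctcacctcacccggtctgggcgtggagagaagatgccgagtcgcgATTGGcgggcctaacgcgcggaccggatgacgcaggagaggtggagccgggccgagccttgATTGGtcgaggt
Insig2: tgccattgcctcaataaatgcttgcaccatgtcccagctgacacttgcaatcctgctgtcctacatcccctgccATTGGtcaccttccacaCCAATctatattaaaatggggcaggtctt

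The first stage of the route, up to the isoprenoid diphosphates, had 6 of 8 members higher in CBZ, where 49.1% of all genes were. Its median log2 fold change was 0.35. At an unadjusted p under 0.05, 3 members were higher, where 5.01% of all genes were. None of those 3 stayed under that p without CBZ replicate 1. Hmgcs1 encodes the cytosolic HMG-CoA synthase, which condenses acetoacetyl-CoA with acetyl-CoA ahead of mevalonate. Its scaled signal was 45.0, 41.3 and 51.9 in DMSO replicates 1, 2 and 3, and 80.2, 64.3 and 51.0 in CBZ replicates 1, 2 and 3. CBZ replicates 1 and 2 lay above all DMSO mice, while replicate 3 lay just below the highest of them. The difference was 1.40-fold (log2 0.48 ± 0.18 SE, limma's adjusted p = 0.452). Hmgcs1 is also a gene whose promoter stretch above holds all 3 motifs.

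Pmvk, the phosphomevalonate kinase, was the enzyme of this stage whose groups did not overlap with CBZ higher. Pmvk read 56.1, 48.7 and 53.9 in the 3 DMSO mice, against 100.2, 78.9 and 58.1 in the 3 CBZ mice. The third CBZ mouse exceeded the highest DMSO mouse by little, and the first by far. The difference was 1.46-fold (log2 0.55 ± 0.20, limma's adjusted p = 0.424). A second, dimmer probe of Pmvk gave 0.49 ± 0.21, with CBZ replicate 3 at 26.6 inside the DMSO range of 23.1 to 28.2.

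Mvd encodes mevalonate diphosphate decarboxylase, which yields isopentenyl diphosphate. Mvd read 4.16, 2.72 and 3.52 in the 3 DMSO mice, against 7.22, 3.92 and 5.15 in the 3 CBZ mice. CBZ replicates 1 and 3 were above all DMSO mice, and replicate 2 was inside their range. This gave 1.54-fold (log2 0.62 ± 0.24, limma's adjusted p = 0.461), with a 95% interval from 0.07 to 1.17.

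Acat2, in this list the cytosolic acetoacetyl-CoA thiolase that opens the route, went the other way. Acat2 read 48.3, 52.6 and 55.6 in the 3 DMSO mice, against 41.8, 47.8 and 47.0 in the 3 CBZ mice. Every CBZ mouse was lower than every DMSO mouse, with CBZ replicate 2 and DMSO replicate 1 close together. The log2 difference was -0.20 ± 0.13 (limma's adjusted p = 0.779), and its 95% interval, -0.49 to 0.10, includes 0. Acat2 and Hmgcs1, whose windows both hold the sterol element core, had estimates of opposite sign. Any part of that motif in their values was not tested.

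The remaining members of this stage did not reach an unadjusted p of 0.05. Idi1, the isopentenyl diphosphate isomerase, was at 0.35 ± 0.23, Fdps, which makes farnesyl diphosphate, at 0.34 ± 0.21, and Mvk, the mevalonate kinase, at 0.28 ± 0.19. In all 3 genes CBZ replicates 1 and 2 lay above every DMSO mouse, and replicate 3 did not. Ggps1, which makes geranylgeranyl diphosphate for protein prenylation and lies off the sterol route, had 3 probes that differed in sign. Its brightest probe gave 2.02, 1.84 and 2.45 in the 3 DMSO mice, against 1.74, 2.38 and 1.83 in the 3 CBZ mice. The groups overlapped, at -0.09 ± 0.17 for that probe and 0.01 ± 0.13 and 0.05 ± 0.15 for the other probes.

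The second stage, from squalene to cholesterol, had 10 of 12 members higher in CBZ, where 49.1% of all genes were. Its median log2 fold change was 0.30. Again 3 members were higher at an unadjusted p under 0.05 (5.01% of all genes). None of these 3 stayed under that p without CBZ replicate 1 either. Fdft1 encodes squalene synthase, the first step committed to sterols. Its scaled signal was 15.3, 13.2 and 11.5 in the 3 DMSO mice, against 21.6, 17.6 and 15.3 in the 3 CBZ mice. CBZ replicates 1 and 2 were above all DMSO mice, and replicate 3 was level with DMSO replicate 1. The difference was 1.36-fold (log2 0.44 ± 0.17, limma's adjusted p = 0.467).

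Sqle encodes squalene epoxidase, a rate-limiting oxygenase of the late pathway. Sqle read 26.9, 17.9 and 19.7 in the 3 DMSO mice, against 42.2, 29.9 and 25.0 in the 3 CBZ mice. Here too CBZ replicates 1 and 2 were above the DMSO range and replicate 3 was inside it. The difference was 1.49-fold (log2 0.58 ± 0.22, limma's adjusted p = 0.462).

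Hsd17b7, the 3-ketosteroid reductase of the C4 demethylation complex, was the enzyme of the second stage whose groups were separate. Its scaled signal was 7.75, 7.06 and 5.96 in the 3 DMSO mice, against 10.03, 8.74 and 8.91 in the 3 CBZ mice. All 3 CBZ mice were above all DMSO mice, with CBZ replicate 3 among them, unlike in Fdft1 and Sqle. The difference was 1.34-fold (log2 0.42 ± 0.14, limma's adjusted p = 0.391). A second probe of the gene gave 0.56 ± 0.15 (limma's adjusted p = 0.272), also without overlap.

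The other enzymes of the second stage ran from 0.36 down to -0.09 on the log2 scale, none at an unadjusted p under 0.05. Cyp51, the lanosterol 14-alpha-demethylase, was at 0.36 ± 0.16, Sc4mol (now Msmo1), the C4-methyl sterol oxidase, at 0.32 ± 0.18, and Dhcr7, the 7-dehydrocholesterol reductase that ends the route, at 0.31 ± 0.16. Lss, which folds squalene epoxide into lanosterol, was at 0.30 ± 0.21, and Sc5d, the C5 desaturase, at 0.22 ± 0.14. Lbr at 0.13 ± 0.17 and Tm7sf2 at -0.09 ± 0.17 encode alternative C14 sterol reductases, and their intervals overlap widely. Nsdhl, the C4 decarboxylase, was at 0.11 ± 0.18 and Ebp, the sterol isomerase, at -0.04 ± 0.14.

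**Figure D2:**
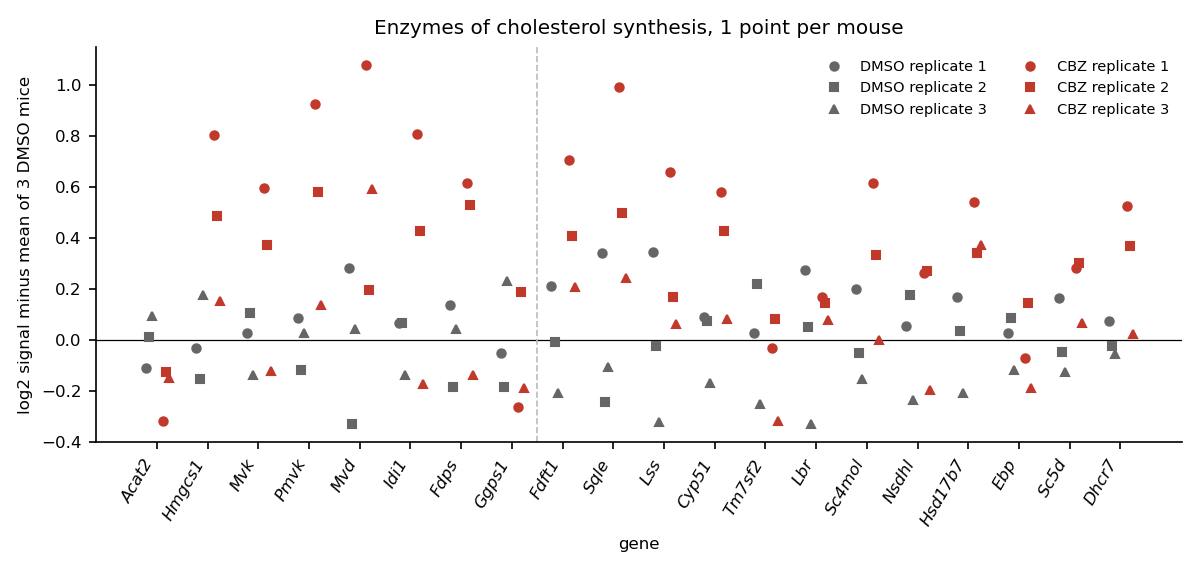
Log2 signal of each of the 20 enzymes minus its mean in the 3 DMSO mice (vertical axis), with genes in pathway order, 1 point per mouse and a dashed line between both stages. CBZ replicate 1 (red circles) is the highest of 6 mice in 13 of 20 enzymes, while CBZ replicate 3 (red triangles) lies among the DMSO mice in most.

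The CBZ mice differed among themselves in these enzymes. Measured against the mean of the DMSO mice, the median over the 20 enzymes was 0.59 in CBZ replicate 1, 0.34 in replicate 2 and 0.04 in replicate 3. CBZ replicate 1 exceeded all 3 DMSO mice in 15 of 20 enzymes, where 23.7% of all genes did so. In CBZ replicate 2 it was 14 of 20 enzymes (30.2% of all genes), and in CBZ replicate 3 it was 3 of 20 (23.1% of all genes). Those 3 are Mvd, Hsd17b7 and Pmvk. Within the CBZ group, replicate 1 was the highest in 14 enzymes (27.9% of all genes) and replicate 3 the lowest in 16 (37.4% of all genes). The DMSO mice were also ordered, with replicate 1 highest in 12 enzymes and replicate 3 lowest in 13, whereas over all genes tested DMSO replicate 1 was highest in 38.7% and DMSO replicate 3 lowest in 45.0%. CBZ replicate 1 shares its slide row with the DMSO arrays, so its values are also the within-row comparison. With the row as a covariate the CBZ estimate is therefore that of replicate 1 alone, an arm of 1 mouse assumed to vary like the others. That fit gave a members' median of 0.38, and its p-values are not read here. Enzymes of one pathway measured in the same 3 livers are not independent of each other.

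**Figure D3:**
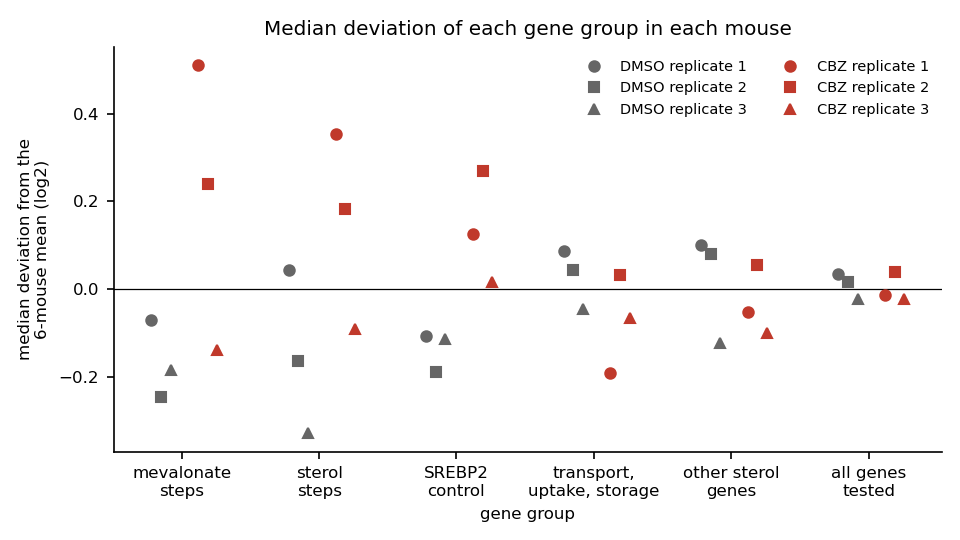
Median deviation of each gene group from its 6-mouse mean (vertical axis, log2), 1 point per mouse. For the first stage of synthesis the CBZ mice are at 0.51, 0.24 and -0.14 and the DMSO mice at -0.07, -0.25 and -0.18, while all genes tested stay within 0.04 of 0.

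Among the 4 genes of SREBP2 control, Insig2 stood apart. INSIG2 is a membrane protein of the endoplasmic reticulum that anchors the SCAP and SREBP complex, and its liver transcript is known to be lowered by insulin. Its scaled signal was 62.0, 55.5 and 70.9 in the 3 DMSO mice, against 102, 162 and 122 in the 3 CBZ mice. All CBZ mice lay above all DMSO mice, and unlike in most of the enzymes the highest was replicate 2 and the lowest replicate 1. The difference was 2.03-fold with a 95% interval of 1.51 to 2.73 (log2 1.02 ± 0.19, limma's adjusted p = 0.135). A second probe read 19.6, 18.6 and 23.1 in the 3 DMSO mice, against 31.0, 55.8 and 37.6 in the 3 CBZ mice. That probe gave 0.98 ± 0.22, also without overlap (limma's adjusted p = 0.191). Insig2 passed the threshold with normexp background correction (0.99, limma's adjusted p = 0.0073) and with an intensity trend and robust variance (1.02, limma's adjusted p = 0.0065). Of the 17078 genes tested, 102 and 134 passed in these settings, against 9 in the reported fit. Over all alternatives the adjusted p of Insig2 ranged from 0.0065 to 0.714. Its log2 fold change ranged from 0.71, with the slide row as a covariate, to 1.17, without CBZ replicate 1. The value with the slide row rests on CBZ replicate 1 alone. On the mouse build mm9, on which the array design places its probes, both Insig2 probes lie on chromosome 1, at 123201085 to 123201144 and at 123202133 to 123202192. The brightest probes of Hsd17b7 (chromosome 1, 171883182 to 171883241), Pmvk (chromosome 3, 89272867 to 89272926) and Scarb1 (chromosome 5, 125757483 to 125757542) are placed likewise, and the exon or UTR they fall in was not analysed here.

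Insig1, the paralog of Insig2 and itself a well known target of nuclear SREBP, read 12.3, 9.12 and 11.7 in the 3 DMSO mice, against 12.6, 10.7 and 11.8 in the 3 CBZ mice. The groups overlapped almost wholly, and the log2 fold change was 0.10 ± 0.15, with a 95% interval of -0.25 to 0.45. Its sign turned under scaling to the array median, where the median of all genes was itself at -0.10. The log2 difference of Insig2 minus Insig1 within a mouse was centred on the mean of the 3 DMSO mice. It was -0.18, 0.09 and 0.09 in the 3 DMSO mice, against 0.51, 1.40 and 0.86 in the 3 CBZ mice. The group means differed by 0.92 (SD 0.15 in DMSO and 0.45 in CBZ, n = 3 each). This difference was chosen after the values of both genes were seen, and is a description with no test.

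Srebf2, which encodes SREBP2 itself, read 1.21, 1.31 and 1.24 in the 3 DMSO mice, against 1.47, 1.87 and 1.27 in the 3 CBZ mice by its brightest probe. CBZ replicate 3 lay inside the DMSO range, and the log2 fold change was 0.27 ± 0.16 (limma's adjusted p = 0.720). A dimmer Srebf2 probe gave 0.344, 0.295 and 0.247 in the 3 DMSO mice, against 0.438, 0.476 and 0.528 in the 3 CBZ mice. This probe was well above background on 5 of 6 arrays, all but that of DMSO replicate 3. By it the groups were separate, with 0.71 ± 0.16. It passed the filter only through the CBZ group, where it was higher, so its separation is a description and no support. Scap, the escort protein, was at -0.01 ± 0.13, and its sign turned under quantile normalisation.

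**Figure D4:**
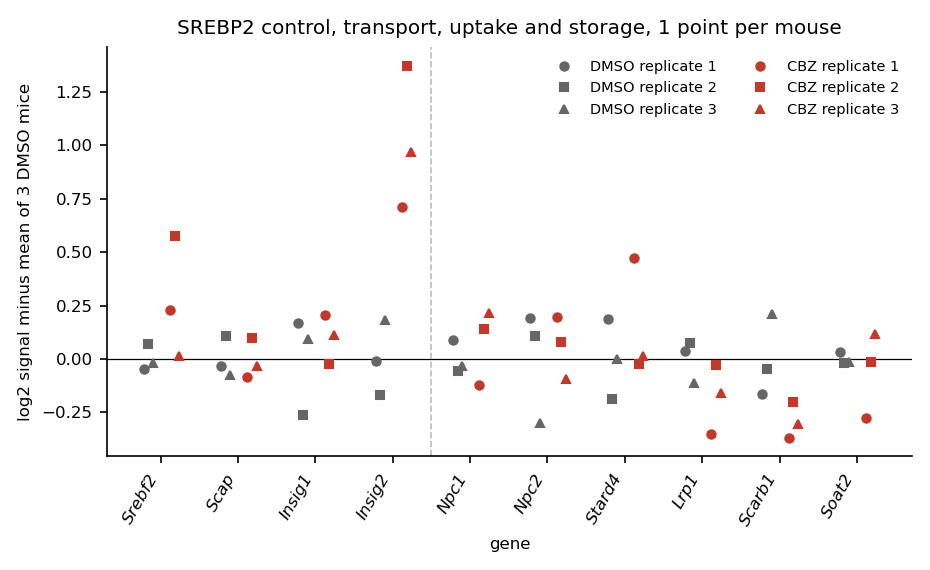
Log2 signal of the 4 control genes and the 6 transport, uptake and storage genes minus the mean of the 3 DMSO mice (vertical axis), 1 point per mouse. The 3 CBZ points of Insig2 lie above its DMSO points, and those of Scarb1 lie below.

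Among the genes of transport, uptake and storage, Scarb1 was the one whose groups did not overlap. It encodes SR-B1, the liver receptor that takes up cholesteryl esters from high density lipoprotein. Scarb1 read 9.52, 10.3 and 12.3 in the 3 DMSO mice, against 8.26, 9.28 and 8.63 in the 3 CBZ mice. Every CBZ mouse was lower than every DMSO mouse, and the narrowest gap was between CBZ replicate 2 and DMSO replicate 1. The log2 fold change was -0.29 ± 0.14 (limma's adjusted p = 0.598), and a second probe gave -0.39 ± 0.13 (limma's adjusted p = 0.366), also without overlap. Scarb1 was 1.22-fold lower in CBZ by its brightest probe.

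Lrp1, a large endocytic receptor for lipoprotein remnants, was at -0.18 ± 0.14 and Soat2, which esterifies cholesterol for storage, at -0.06 ± 0.14. Npc1 and Npc2, which move cholesterol out of lysosomes, were at 0.08 ± 0.14 and 0.06 ± 0.17, and both turned sign under scaling to the array median. Stard4, a cytosolic sterol carrier and known SREBP target, had probes of opposite sign. Its brightest probe read 12.3, 9.43 and 10.8 in the 3 DMSO mice, against 14.9, 10.6 and 10.9 in the 3 CBZ mice, at 0.15 ± 0.18. The dimmer Stard4 probe was at -0.13 ± 0.24, and the groups overlapped for both.

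A further list of 33 genes around the pathway held other enzymes, SREBP processing proteases, sterol exporters, oxysterol receptors and bile acid enzymes. Of these, 31 were measured, and Vldlr and Soat1 were too dim to keep. By mean, 10 were higher in CBZ and 21 lower (49.1% of all genes were higher), with a median of -0.04. In limma's test 0 of 31 passed the adjusted threshold. At an unadjusted p under 0.05, 2 were higher (5.01% of all genes) and 1 was lower (3.96% of all genes), which is near the shares over all genes and no result about the list. Cyp7b1, an oxysterol 7-alpha-hydroxylase, read 82.6, 142 and 62.6 in the 3 DMSO mice, against 30.8, 62.5 and 40.6 in the 3 CBZ mice. Its groups did not overlap, though CBZ replicate 2 and DMSO replicate 3 almost touched, and it was at -1.08 ± 0.33 (limma's adjusted p = 0.336). With scaling to the array median, as in the authors' deposited value table, Cyp7b1 passed (-1.18, limma's adjusted p = 0.011), and over its other settings it did not. With that scaling 89 of the 17078 genes tested passed. The variance there was common to all probes, so this p-value does not measure the spread of Cyp7b1 between mice. Cyp7a1, the rate-limiting enzyme of bile acid synthesis, read 7.32, 6.66 and 4.49 in the 3 DMSO mice, against 16.2, 7.46 and 9.25 in the 3 CBZ mice, at 0.78 ± 0.29 (limma's adjusted p = 0.439). Srebf1, which encodes the SREBP1 factors of fatty acid synthesis, read 6.31, 5.84 and 4.69 in the 3 DMSO mice, against 7.93, 6.84 and 9.05 in the 3 CBZ mice, at 0.50 ± 0.17 (limma's adjusted p = 0.371). Cyp7a1 and Srebf1, 2 of 31 genes, were higher in every CBZ mouse than in any DMSO mouse (6.28% of all genes). Cyp7b1 was the 1 gene lower in every CBZ mouse (6.65% of all genes). These counts are near or below the shares over all genes and no result about the list.

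The tissue label was checked against cell type markers. All 8 hepatocyte markers, among them Alb, Ttr and Apoa1, were well above background on all 6 arrays, and their mean deviation lay between -0.09 and 0.05 in the DMSO mice and between -0.06 and 0.12 in the CBZ mice. In CBZ against DMSO 4 of 8 hepatocyte markers were higher, with a median log2 fold change of 0.0051. Among markers of other liver cells, 5 of 7 of Kupffer cells, 4 of 6 of sinusoidal endothelium and 6 of 7 of stellate cells were higher in CBZ. The stellate markers' mean deviation lay between -0.23 and -0.01 in the DMSO mice and between -0.12 and 0.43 in the CBZ mice, highest in CBZ replicate 2. That mouse was also highest for the hepatocyte (0.12) and endothelial (0.26) markers, but not for the other lists. CBZ replicate 2 was the highest mouse for Insig2 too, and the highest CBZ mouse in 47.0% of all genes. The mean deviation of the Kupffer markers lay between -0.49 and 0.73 in the DMSO mice and between -0.08 and 0.19 in the CBZ mice. The bile duct markers Epcam and Sox9 were too dim to keep, and the other 3 were measured, 2 of them higher in CBZ. Lymphocyte markers were higher in 3 of 4, neutrophil markers in 2 of 2 kept with Ngp too dim, and red cell markers in 0 of 3. The neutrophil markers' mean deviation was 0.43, 0.97 and -1.82 in the 3 DMSO mice, against 0.12, 0.12 and 0.19 in the 3 CBZ mice. DMSO replicates 1 and 2 thus lay above every CBZ mouse for these markers. No marker passed limma's adjusted threshold, and their part in the members' values was not tested. In RNA of whole liver, fewer cells of a type and less RNA per cell cannot be told apart.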

How the data were processed

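Per the labels, total RNA of each liver was labelled with Cy3. Per the file headers, the authors extracted scans with Agilent Feature Extraction 10.7.3.1 (protocol GE1_107_Sep09), and the deposited processed intensity is background-subtracted and detrended. The authors' deposited value table holds the ratio of that intensity to the array's median, on a linear scale, with no direction involved, as a comparison with the scanner values showed. Its columns therefore have a median of 1.

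Here control spots and outlier spots were left out, log2 processed intensity was scaled to each array's 75th percentile over non-control spots, spots of 1 probe were averaged, and probes well above background on all 3 arrays of a group were kept (22377 of 55681, for 17078 genes). A gene was represented by its brightest probe. The test was limma's moderated test (version 3.58.1, R 4.3.3), two-sided and without covariates, and p-values were adjusted by Benjamini-Hochberg over the kept probes. The fit was tested on simulated data. Values for each mouse are given for members at an unadjusted p under 0.05, with groups that do not overlap or with probes of both signs, with Insig1 and Srebf2 added after their values were seen, and for up to 6 other sterol genes at an unadjusted p under 0.05. Members and lists were chosen with earlier results of these data known. Alternatives were quantile and median scaling, normexp background (offset 50), other filters, trend with robust eBayes, the value table, slide row, replicate block, probe means and leaving out each mouse.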

Additional observations from a re-analysis of the deposited data

How the results depend on the processing

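The count of members past the adjusted threshold was 0 in the reported fit and 1 with normexp background and with an intensity trend and robust eBayes, Insig2 in both, and 0 in every other alternative, leave-one-out fits included. The count of other sterol genes past it was 0, but 1 with median scaling and with the authors' value table, which is that scaling (Cyp7b1), and 0 otherwise. Both list medians, and the count of members higher in CBZ (19 to 25), moved by less than the spread between mice or by less than 1.5 times. The members' median was 0.15 with median scaling, where the median of all genes was -0.10 and 29.4% of genes were higher, so that the difference between them stayed at 0.25. The count of members at an unadjusted p under 0.05 was 1 with median scaling, 3 with no filter and 11 with trend and robust eBayes. Over all genes, 242 were higher and 452 lower of 17078 with median scaling, and 1061 and 543 of 34821 with no filter. They were 790 and 772 of 17078 with trend and robust eBayes. With the slide row as a covariate the CBZ estimate is that of CBZ replicate 1 alone against the 3 DMSO mice, so its count is not given. Median scaling gave 1 variance common to all probes, so its p-values do not measure the spread of single genes. Over all genes, 9 passed in the reported fit, 4 to 134 in the alternatives that used all 6 mice and the filter, and 0 with no filter. Of the 30 members, 19 kept their sign in all 16 alternatives, while 11 turned in at least 1, and of these 11 Stard4, at 0.15, lay farthest from 0 in the reported fit. Counting motifs over the whole 300-base promoter window left 20 members with CCAAT, 21 with GGGCGG and 2 with the sterol element core. Samples with the same replicate number did not deviate together (r = -0.24, 0.02 and 0.18), and CBZ replicates 1 and 2 correlated best with another number. With the replicate number as a block (replicate block), 0 members passed and the members' median was 0.25. In that fit 8 members were at an unadjusted p under 0.05, where 823 genes were higher and 635 lower of 17078. Signal over background limits dim probes, such as the second probe of Srebf2.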

Other observations

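A split noticed after the values were seen, and for which no test was run, concerns the members with a promoter window. The 20 members with CCAAT in the 250 bases before a start had a median log2 fold change of 0.29, with 17 higher in CBZ and 3 lower. The 3 members without it, Acat2, Lrp1 and Scap, were lower in CBZ by mean, with a median of -0.18, but the intervals of all 3 include 0. Acat2 was at -0.20 ± 0.13 and Lrp1 at -0.18 ± 0.14. Scap, at -0.01 ± 0.13, hardly differed between the groups, and it turned to 0.03 under quantile normalisation. Copies of CCAAT in a window ranged from 0 to 5, and the member with 5, Mvk, was at 0.28.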
